A study of Bombyx mori with 3 samples.

Results

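The 8 genes described here are Myc, E2F1, CycG, Akt1, sd, ex, wts and Diap1, regulators of growth, the cell cycle and the Hippo pathway, in single cells of the silk gland of the silkworm Bombyx mori. They were chosen by name, and each was matched to 1 of the 16880 genes of the count tables by its name or through the gene annotation of the study: Myc is the row myc, E2F1 is E2f1, CycG is LOC101739346, Akt1 is LOC100141438, sd is LOC101741252, ex is LOC101744950, wts is LOC101742244 and Diap1 is Iap. Glands of the Nistari strain were taken from late embryos 8 days after egg laying (E8D), from larvae on the first day of the first instar (1L1D) and from larvae at the first molt (1LM), without any treatment. About 2000 glands were pooled and dissociated per stage, and 1 library was made from each pool, so no result below has a replicate check, and stage and library cannot be told apart. The labels also tag the cells as expanded in vitro, whereas the protocol describes glands that were cut up and digested with enzyme.

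After mitosis ends in the embryo, silk gland cells grow by repeated rounds of DNA replication without division, the endocycle. In Drosophila, Myc is a transcription factor that drives ribosome production and cell growth, Akt1 is the kinase through which insulin signals promote growth, E2F1 switches on genes of DNA replication, and CycG, cyclin G, has been linked to growth and Akt1 activity. In the fly Hippo pathway, ex (expanded) acts upstream at the cell cortex, wts (warts) is the kinase that restrains the co-activator Yorkie, sd (scalloped) is the DNA-binding partner of Yorkie, and Diap1, an inhibitor of caspases, is a classical target of Yorkie, as are ex and Myc. Yorkie itself was not analysed here.

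After quality control, 4880 cells with 6878383 unique molecular identifiers (UMIs, each a counted mRNA molecule) were kept for E8D, 4339 cells with 18546139 UMIs for 1L1D and 7125 cells with 13120838 UMIs for 1LM, at a median of 738, 1845 and 1465 UMIs per cell. The 50 most abundant genes took 53.1% of UMIs in the E8D library, 53.4% in the 1L1D library and 30.2% in the 1LM library, and silk protein genes took 0.323%, 5.78% and 3.35%. The filters removed 471, 1661 and 388 barcodes, which held 5701278, 14041894 and 3457795 UMIs. In each library the removed barcodes thus held more UMIs on average than the kept cells. Between 10 and 12 barcodes were shared by any pair of libraries. Levels are given as CPM, the UMIs of a gene per 1000000 UMIs of the cells summed, with an exact Poisson 95% interval. The intervals cover counting error only. How often all genes show a given order of stages, or intervals that do not overlap, was not counted. In sums over a library, fewer cells of a type and less RNA per cell cannot be told apart. At these depths, 3 UMIs correspond to 0.436 CPM at E8D, 0.162 CPM at 1L1D and 0.229 CPM at 1LM, and all 8 genes lay far above this floor.

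Among the growth regulators, Myc had 153 CPM at E8D (144 to 162, 1051 UMIs), 34.6 CPM at 1L1D (32.0 to 37.4, 642 UMIs) and 172 CPM at 1LM (165 to 179, 2256 UMIs). The 1L1D library was thus low, and its interval did not overlap those of the other libraries. Akt1 had 153 CPM at E8D (144 to 162), 118 CPM at 1L1D (113 to 123) and 297 CPM at 1LM (288 to 306). Its highest level was at 1LM, and the 3 intervals did not overlap.

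Of the cell cycle genes, E2F1 had 39.4 CPM at E8D (34.8 to 44.4, 271 UMIs), 20.8 CPM at 1L1D (18.8 to 23.0, 386 UMIs) and 62.5 CPM at 1LM (58.3 to 66.9, 820 UMIs). CycG had 476 CPM at E8D (460 to 493), 288 CPM at 1L1D (280 to 296) and 698 CPM at 1LM (684 to 712). Both genes were therefore lowest at 1L1D and highest at 1LM in CPM, with intervals that did not overlap. The median log2 ratio of all genes at 1LM was also above 0, 1.27 over 1L1D and 0.94 over E8D. With another scaling, by TMM factors, the log2 ratio of CycG for 1LM over E8D was -0.27 (-0.33 to -0.21). The highest library of CycG thus depended on the scaling.

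Of the Hippo genes, sd had 22.4 CPM at E8D (19.0 to 26.2, 154 UMIs), 49.98 CPM at 1L1D (46.8 to 53.3, 927 UMIs) and 111 CPM at 1LM (105 to 117, 1457 UMIs). The upstream regulator ex had 12.9 CPM at E8D (10.4 to 15.9, 89 UMIs), 27.4 CPM at 1L1D (25.1 to 29.9, 509 UMIs) and 42.6 CPM at 1LM (39.1 to 46.3, 559 UMIs). These were the members for which E8D, not 1L1D, was the lowest library. The kinase wts had 24.3 CPM at E8D (20.7 to 28.3, 167 UMIs), 15.9 CPM at 1L1D (14.1 to 17.8, 295 UMIs) and 48.2 CPM at 1LM (44.6 to 52.2, 633 UMIs). Diap1 had 224 CPM at E8D (213 to 236), 114 CPM at 1L1D (109 to 119) and 210 CPM at 1LM (202 to 218). Its intervals at E8D and 1LM overlapped, and that at 1L1D lay below both. The log2 ratio of Diap1 at 1LM over E8D was -0.09, with an interval of -0.18 to -0.0027 that left out 0.

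**Figure D1:**
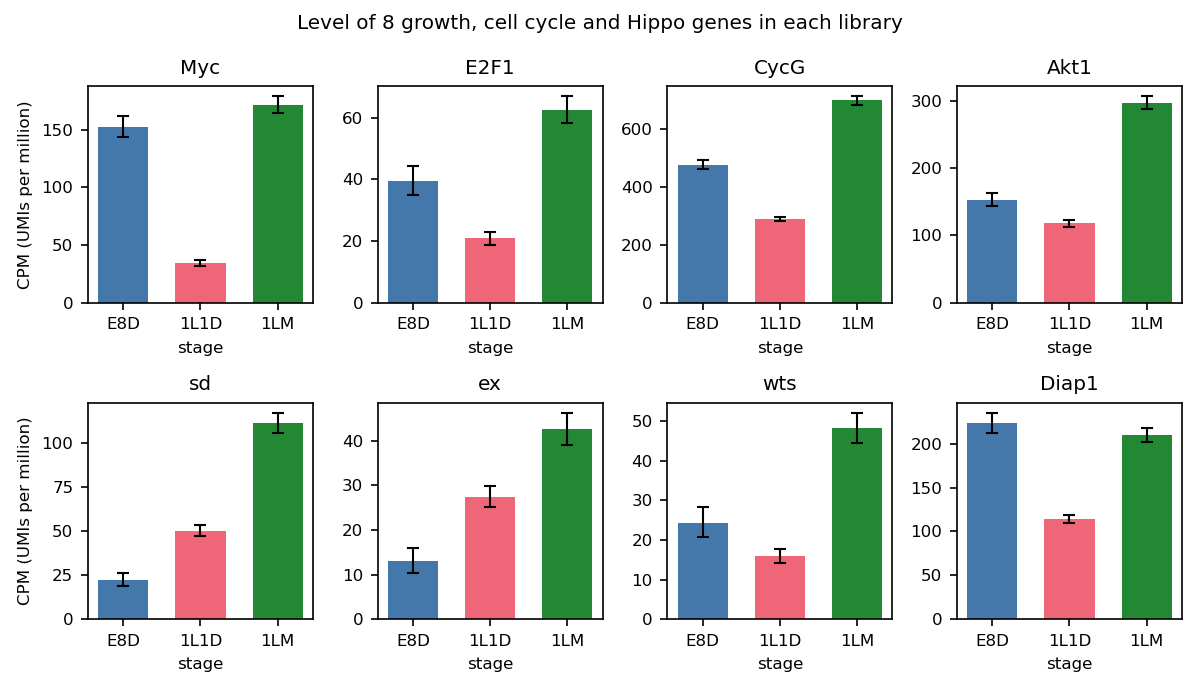
Level of each of the 8 genes in CPM (y axis) at the 3 stages (x axis), 1 library each; bars start at 0 and the error bars are exact Poisson 95% intervals. Myc, E2F1, CycG, Akt1, wts and Diap1 are lowest at 1L1D (Myc at 34.6 CPM), whereas sd and ex are lowest at E8D (22.4 and 12.9 CPM). The share of all genes lowest at each stage was not counted.

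The first comparison asked how the genes differ between the newly hatched larva and the late embryo. A gene was called higher or lower where its CPM ratio was at least 2-fold and the exact 95% interval of the ratio left out 0 on the log2 scale. In 1L1D, sd was higher than at E8D by 2.23-fold (log2 ratio 1.16, 0.91 to 1.41) and ex by 2.12-fold (log2 ratio 1.08, 0.76 to 1.43), and Myc was lower by 4.41-fold (log2 ratio -2.14, -2.29 to -1.999). Thus 2 of 8 members were higher, where 13.4% of 9714 genes tested were, and 1 of 8 was lower, where 19.8% of genes were. The log2 ratio was -0.92 for E2F1, -0.73 for CycG, -0.38 for Akt1, -0.61 for wts and -0.97 for Diap1, none of them past 2-fold. The median log2 ratio was -0.67 over the 8 members and -0.19 over all genes tested. Myc stood at percentile 5.01 of all genes, sd at 85.9 and ex at 84.6. The call for ex was lost among cells of 2000 to below 4000 UMIs, and that for sd among cells of 1000 to below 2000 UMIs.

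Between the first molt and the first day of larval life, 6 of 8 members were called higher at 1LM and none lower. The log2 ratio of 1LM over 1L1D was 2.31 for Myc (2.19 to 2.44), 1.601 for wts (1.40 to 1.81), 1.59 for E2F1 (1.41 to 1.76), 1.33 for Akt1 (1.26 to 1.41), 1.28 for CycG (1.23 to 1.33) and 1.15 for sd (1.03 to 1.27). It was 0.88 for Diap1 and 0.63 for ex, below 2-fold. Of 11215 genes tested, 57.7% were called higher and 4.98% lower in this comparison, and the median log2 ratio of all genes was 1.27, so that 6 of 8 is not far from the share of all genes. Relative to that median, Myc was 1.04 higher on the log2 scale, the other members lay between 0.33 higher (wts) and 0.64 lower (ex), and only Myc remained past 2-fold. For sd the sign turned: it was 0.12 below the median of all genes. Myc stood at percentile 79.0 of all genes, Akt1 at 52.3, CycG at 50.3 and ex at 26.0.

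From the embryo to the molt, sd and ex were the members called higher, at 1LM 4.96-fold for sd (log2 ratio 2.31, 2.07 to 2.56) and 3.29-fold for ex (log2 ratio 1.72, 1.39 to 2.06) over E8D. Of 11072 genes, 44.9% were called higher and 5.78% lower, and the median log2 ratio of all genes was 0.94. Relative to this median only sd stayed past 2-fold higher, by 1.37 on the log2 scale, ex was 0.78 higher, and Diap1 was 1.04 lower. Myc, at a log2 ratio of 0.17 (0.06 to 0.28), was at 1LM near its level at E8D, whereas wts (0.99), Akt1 (0.96), E2F1 (0.67) and CycG (0.55) had log2 ratios above 0 but not above 2-fold. Relative to the median of all genes, Myc (-0.77), CycG (-0.39) and E2F1 (-0.28) lay below it, and they also turned negative with the other scalings by TMM or DESeq2 factors. These 3 comparisons share libraries and are not independent of each other.

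**Figure D2:**
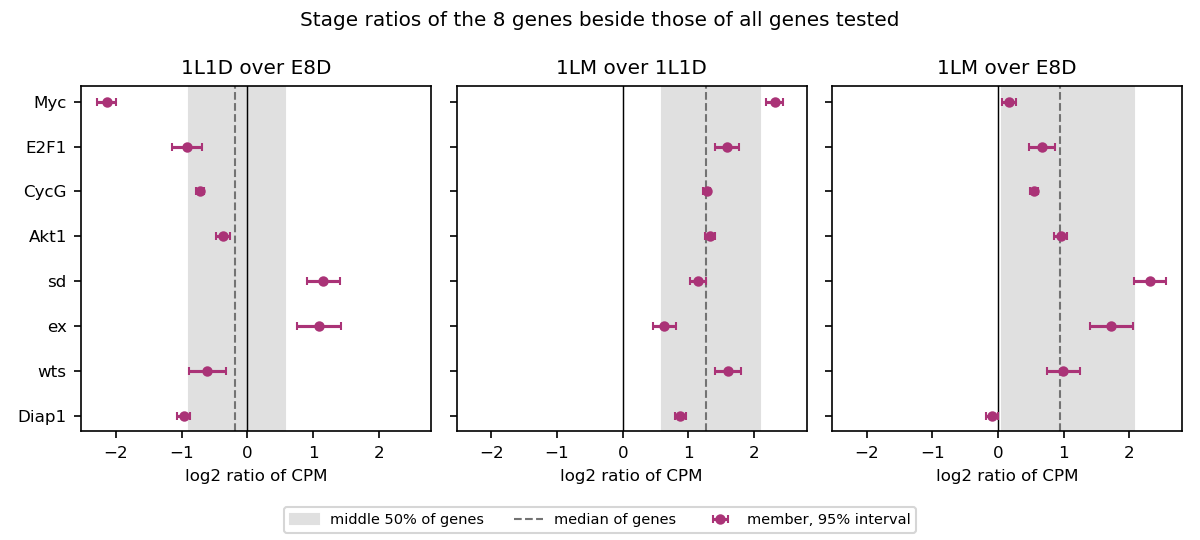
Log2 ratio of CPM (x axis) of each of the 8 genes (y axis) for 1L1D over E8D, 1LM over 1L1D and 1LM over E8D; points carry exact 95% counting intervals, the grey band holds the middle 50% of all genes tested and the dashed line is their median. Myc lies left of the band for 1L1D over E8D (-2.14) and right of it for 1LM over 1L1D (2.31), and sd and ex lie right of it for 1L1D over E8D (1.16 and 1.08).

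In the barcodes that the quality filters removed, Myc was also low at 1L1D, with 116 CPM at E8D, 22.6 CPM at 1L1D and 113 CPM at 1LM. The levels of other members differed more from those of kept cells. Thus sd had 17.0 CPM at E8D, 65.4 CPM at 1L1D and 16.8 CPM (58 UMIs) at 1LM in removed barcodes, where 1L1D and not 1LM was its highest library.

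To ask whether the levels vary with the depth of a cell, the cells of each library were split into 4 depth classes of equal size by total UMIs. From the shallowest to the deepest, the classes had a median of 539, 655, 869 and 1961 UMIs at E8D, of 1202, 1518, 2555 and 9385 UMIs at 1L1D and of 901, 1177, 1767 and 3108 UMIs at 1LM. In none of the 24 combinations of member and stage did the deepest class differ from the shallowest by 2-fold; the log2 ratios lay between -0.48 and 0.90. Among all genes, 5.36% were called higher and 0.577% lower in the deepest class at E8D, 15.8% and 0.582% at 1L1D, and 6.21% and 1.27% at 1LM. The median log2 ratio of all genes was above 0 in each library, 0.31 at E8D, 0.30 at 1L1D and 0.13 at 1LM. Smaller differences, with an interval that left out 0, were seen in 10 of the 24, of which 7 were higher and 3 lower in the deepest class. This split rested on the choice of cells: over all deposited barcodes 2 of the 24 were higher and 11 lower in the deepest class. At 1LM all 8 members were then lower there, with log2 ratios between -0.73 (Akt1) and -0.23 (Diap1). The share of all genes with an interval that left out 0 was not counted, so these counts of smaller differences have no like background. The cell groups described below also differ in depth, and depth and cell group were not separated. The largest group had a median of 638 UMIs at E8D (2095 cells) and 977.5 UMIs at 1LM (2288 cells). In the latter, Akt1 had 363 CPM and sd 60.1 CPM. The part of cell group in the differences with depth was not tested.

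In kept cells, Myc had 165, 155, 163 and 148 CPM at E8D from the shallowest to the deepest class, a log2 ratio of -0.16 (-0.45 to 0.15). At E8D this ratio was -0.36 (-0.64 to -0.08) over all deposited barcodes and -0.41 (-0.71 to -0.10) without silk protein and mitochondrial genes. At 1LM it had 176, 175, 178 and 167 CPM in kept cells, a log2 ratio of -0.07 (-0.26 to 0.12), which was -0.32 (-0.50 to -0.13) over all deposited barcodes. At 1L1D it had 26.0, 29.3, 25.6 and 38.3 CPM, where the deepest class lay above the shallowest by 0.56 on the log2 scale (0.06 to 1.11), and its highest class at 1L1D was still below its lowest class at E8D. Akt1 had 127, 125, 148 and 163 CPM at E8D, and 362, 342, 307 and 259 CPM at 1LM. Its deepest class was thus the highest in the embryo and the lowest at the molt, with log2 ratios of the deepest over the shallowest class of 0.36 (0.03 to 0.70) and -0.48 (-0.62 to -0.34). At 1L1D the log2 ratio for Akt1 was -0.28 (-0.51 to -0.05).

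For CycG the log2 ratio was 0.22 at E8D (0.04 to 0.40), against -0.21 at 1LM (-0.30 to -0.12). Both lay below the medians of all genes, 0.31 at E8D and 0.13 at 1LM. The positive values at E8D rested on the choice of cells and genes: over all deposited barcodes the log2 ratio was -0.06 for Akt1 and -0.32 for CycG, and without silk protein and mitochondrial genes it was 0.11 for Akt1 and -0.03 for CycG. For sd the shallowest class was the lowest at 1LM, with 80.7, 118, 133 and 105 CPM, and the deepest was the highest at 1L1D, with 35.1, 32.3, 44.5 and 55.2 CPM. The direction at 1LM turned with the choice of cells, since the log2 ratio of sd was 0.38 (0.11 to 0.67) in kept cells and -0.28 (-0.55 to -0.0084) over all deposited barcodes. E2F1 had wide intervals, with log2 ratios of 0.72 (0.00 to 1.53) at E8D, 0.67 (0.00 to 1.42) at 1L1D and -0.03 (-0.36 to 0.31) at 1LM. For ex and wts no difference with depth was detectable among the kept cells of any library, with 8 and 9 UMIs in the shallowest class at E8D. Over all deposited barcodes at 1LM both were lower in the deepest class, by log2 ratios of -0.56 (-0.93 to -0.18) for ex and -0.45 (-0.79 to -0.09) for wts. Diap1 had 226, 153, 162 and 252 CPM at E8D, without a steady trend.

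**Figure D3:**
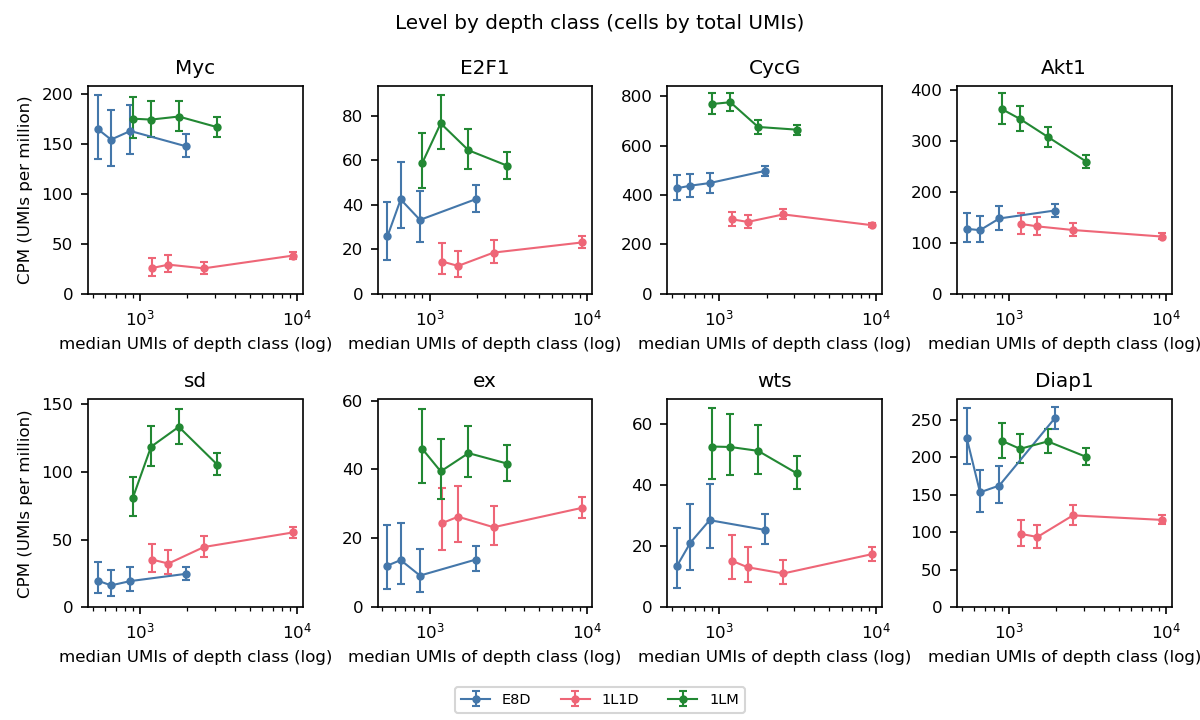
CPM of each of the 8 genes (y axis, from 0) in the 4 depth classes of each library, placed at the median total UMIs of the class (x axis, log scale), with exact Poisson 95% intervals; colours are stages. Myc spans 148 to 165 CPM for E8D, 25.6 to 38.3 CPM for 1L1D and 167 to 178 CPM for 1LM, without overlap between 1L1D and the other stages, while Akt1 at 1LM runs down with depth to 259 CPM.

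Stages were then compared among cells of like depth. Among cells of 1000 to below 2000 UMIs (866 cells at E8D, 2329 at 1L1D and 3253 at 1LM), Myc had 155, 27.4 and 178 CPM at the 3 stages, and among cells of 2000 to below 4000 UMIs (290, 853 and 1669 cells) it had 150, 25.5 and 178 CPM. E2F1, not called over all cells, was lower at 1L1D than at E8D in both ranges, by log2 ratios of -1.43 and -1.16. Of the 24 combinations of member and stage pair, 10 were called in the same direction in both ranges. They were Myc and E2F1, lower at 1L1D than at E8D, then Myc, E2F1, CycG, Akt1, sd and wts, higher at 1LM than at 1L1D, and sd and ex, higher at 1LM than at E8D. For 1L1D over E8D, 6.28% of genes were called higher and 23% lower in the first range, and 7.16% and 20.6% in the second. For 1LM over 1L1D, these shares were 59.8% and 3.22%, then 53.1% and 3.94%, and for 1LM over E8D they were 38.3% and 4.59%, then 33.8% and 5.52%. Relative to the median of all genes, 3 of the 10 remained, Myc for 1L1D over E8D, Myc for 1LM over 1L1D and sd for 1LM over E8D.

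The share of cells with at least 1 UMI depends on depth, so each cell was thinned to 1000 UMIs, which left out 3418 cells at E8D, none at 1L1D and 1743 at 1LM. Myc was then found in 13.6% of cells at E8D, 2.65% at 1L1D and 14.5% at 1LM, against 15.6%, 10.9% and 22.7% of cells before thinning. For CycG the thinned shares were 30.8%, 24.5% and 49.4%, against 31.7%, 50.9% and 65.2% before thinning. For Akt1 they were 12.8%, 11.2% and 26.5%, against 14.4%, 30.6% and 39.0%. The remaining shares after thinning were 3.63%, 1.61% and 6.02% for E2F1, 2.12%, 3.85% and 10.1% for sd, 0.958%, 2.49% and 4.33% for ex, and 2.67%, 1.29% and 4.61% for wts. Diap1 was found in 17.6%, 9.93% and 19.3% of cells, an order at E8D and 1LM that goes against the CPM, so none is read from it. These shares were not taken over all genes, so their order over the stages has no like background. The share that free RNA gives was not measured, since no cell type was known to lack these genes.

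Each library was next clustered on its own, without the 8 genes or the genes of the pathway lists below, which gave 7 cell groups at E8D, 13 at 1L1D and 10 at 1LM. Groups were named from the cell types of the study by their markers: LSF (liquid silk fibrosis), ECR (epithelial cell remodeling), CM (chitin metabolism) and TR (traction forces) of the anterior gland, SPS (sericin-synthesizing), ERSS (endoplasmic reticulum stress signaling) and SPC (sericin catabolism) of the middle gland, and FPS (fibroin-synthesizing) and FPC (fibroin catabolism) of the posterior gland. Groups without a clear name held 49.1% of cells at E8D, 40.5% at 1L1D and 52.6% at 1LM. Where the level in a group was set against that in the other cells of its library, 42 of 240 combinations of member and group were called, 15 of them for ex, 10 for sd, 8 for Myc, 5 for E2F1 and 1 each for CycG, Akt1, wts and Diap1. Calls of higher levels made up 7.14% of combinations at E8D, 4.81% at 1L1D and 8.75% at 1LM, against 7.95%, 7.36% and 9.28% over all genes. Calls of lower levels made up 16.1%, 8.65% and 10% of combinations, against 10.9%, 10.3% and 13.4%. The difference between these shares was not tested.

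At the molt, the FPC-like group (729 cells) held the highest level of Myc, 431 CPM (397 to 466), with an interval that overlapped that of no other group. It also had 122 CPM of E2F1 (104 to 142) and 280 CPM of sd (253 to 309), and the log2 ratios of Myc, E2F1 and sd over the other cells were 1.61, 1.14 and 1.62. For CycG, at 877 CPM (829 to 927), the log2 ratio was 0.38, no call, and the interval overlapped that of the second ECR-like group, at 849 CPM (793 to 908). With 10.7% of the UMIs of the library, it gave 26.9% of the Myc UMIs, 21.0% of the E2F1 UMIs and 27.0% of the sd UMIs. ex was also higher there, with 79.5 CPM and a log2 ratio of 1.06. The other group rich in sd was 1 of the ECR-like groups (858 cells), with 269 CPM (244 to 296), an interval that overlapped that of the FPC-like group, and 29.5% of the sd UMIs, but in that group Myc had only 85.8 CPM and a log2 ratio of -1.10. The second ECR-like group (467 cells) had 196 CPM of sd. The SPS-like cells (851 cells) had 16.7 CPM of sd (11.6 to 23.2), 18.1 CPM of ex and 87.1 CPM of Myc, all past 2-fold below the other cells. E2F1 had 113 CPM in the SPC-like group (231 cells, 89.8 to 141), which overlapped its interval in the FPC-like group.

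High levels of ex were found in some of the groups named for the anterior gland, at E8D and 1LM, though at 1LM not only there. At E8D the LSF-like groups had 52.0 CPM (34.0 to 76.2, 26 UMIs in 423 cells) and 75.4 CPM (52.2 to 105, 34 UMIs in 48 cells), and they held 29.2% and 38.2% of all ex UMIs. In contrast, it had 4.01 CPM in the FPS-like group, 2.63 CPM in the ERSS-like group and 1.65 CPM in the SPS-like group, on 8, 2 and 2 UMIs. At 1L1D an unnamed group of 475 cells had 53.0 CPM (46.9 to 59.7) and 53.6% of the ex UMIs, with 27.8% of all UMIs of the library. Markers of the LSF type had the highest median log2 ratio in it, 2.99. Its leading genes, however, held Btl, a marker of the TR type, and no marker of the LSF type. At 1LM the CM-like group had 92.7 CPM (65.3 to 128), the second ECR-like group 80.5 CPM and the FPC-like group, of the posterior gland, 79.5 CPM. Other groups named for the anterior gland were not past 2-fold, with 29.9 CPM in the TR-like group at 1L1D (log2 ratio over the other cells 0.13) and 55.1 CPM in the larger ECR-like group at 1LM (log2 ratio 0.43). These groups differ in depth: the small LSF-like group at E8D had a median of 7858 UMIs per cell and the unnamed group at 1L1D 9388 UMIs, and the part of depth in these differences was not tested.

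The remaining members varied less between groups. At E8D, the ERSS-like group (771 cells) was low for Myc (57.9 CPM), E2F1 (14.5 CPM), sd (11.8 CPM), ex, wts (11.8 CPM) and Diap1 (113 CPM), all past 2-fold below the other cells. The small LSF-like group was high for CycG (936 CPM) and E2F1 (77.7 CPM). Akt1 was past 2-fold only in an unnamed group of 120 cells at 1L1D, with 291 CPM (237 to 354), which also had the highest Myc of its library, 81.5 CPM (54.2 to 118, 28 UMIs). At 1LM, Akt1 ranged over groups from 222 to 363 CPM and CycG from 535 to 877 CPM, both less than 2-fold.

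Between the highest and the lowest group of a library, 17 of the 24 combinations of member and stage were called at least 2-fold. Of all genes, 79.7% passed this at E8D, 77.8% at 1L1D and 50.5% at 1LM. Of genes with at least 100 UMIs, 92.9% passed it at E8D, 83.2% at 1L1D and 47.1% at 1LM. Both extremes were picked among many groups, which their intervals do not take into account.

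**Figure D4:**
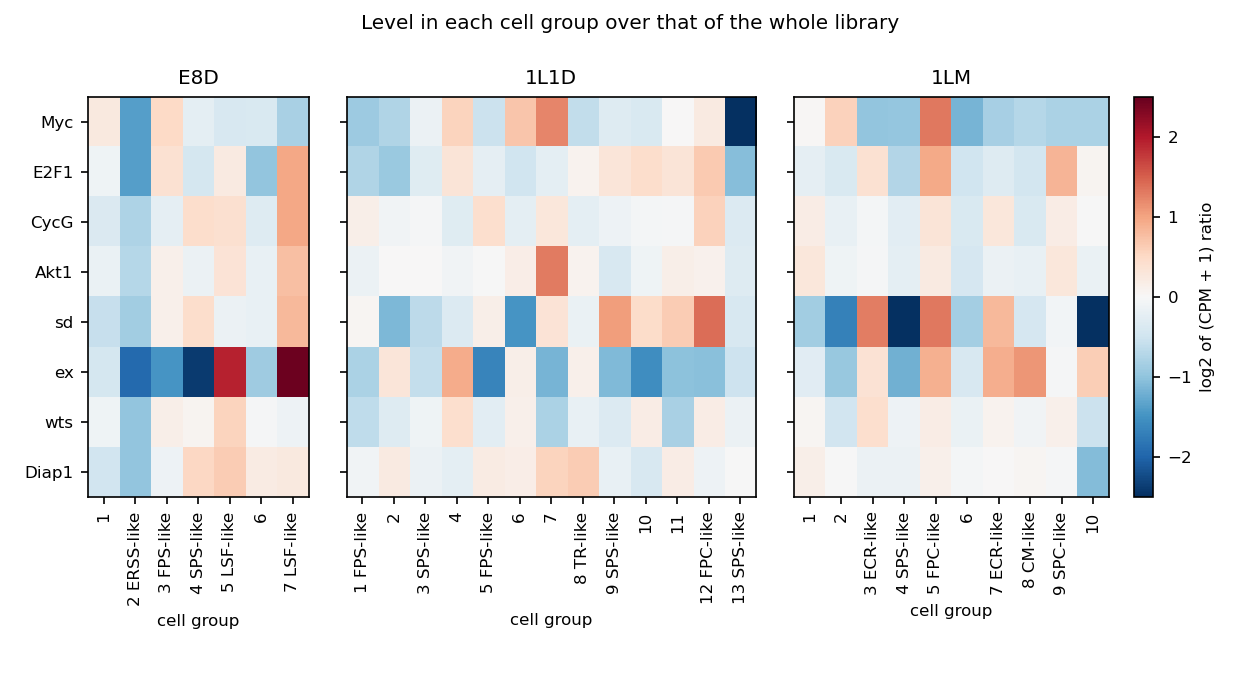
Log2 ratio of (CPM + 1) of each of the 8 genes (rows) in each cell group (columns, numbered by size, with a name where markers gave one) over the whole library, for the 3 stages; red is higher, blue lower, and colours stop at 2.5 in both directions. Red cells stand out for ex in the LSF-like groups at E8D (52.0 and 75.4 CPM) and in unnamed group 4 at 1L1D (53.0 CPM). They also stand out for Myc and sd in the FPC-like group at 1LM (431 and 280 CPM). Blue cells include sd at 1LM in the SPS-like group (16.7 CPM) and in unnamed group 10 (0 CPM, 27 cells). Others are Myc in group 13 at 1L1D (4.73 CPM) and ex in the SPS-like group at E8D (1.65 CPM).

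Named cells that occurred at more than 1 stage allowed the stages to be compared within a type, with the limit that the names were rebuilt here from markers. In FPS-like cells, Myc had 21.1 CPM at 1L1D (1456 cells) and 215 CPM at E8D (652 cells), a log2 ratio of -3.35. E2F1 (-1.77) and wts (-1.22) were also lower there, and sd (1.13) and ex (1.504, on 49 and 8 UMIs) were higher. In these cells 5.54% of 7421 genes were called higher and 37.3% lower, with a median log2 ratio of -0.79. In SPS-like cells, Myc had 28.3 CPM at 1L1D (938 cells) and 129 CPM at E8D (591 cells), a log2 ratio of -2.19, Diap1 (-1.65) and CycG (-1.24) were lower, and ex was higher, with 48 and 2 UMIs. Here 7.84% of 7655 genes were called higher and 20.9% lower, with a median of -0.40. The SPS-like set at 1L1D included a group of 115 cells with LOC101740082 and LOC105841987 among its leading genes. A group of 300 cells at E8D shared these leading genes but was unnamed and left out. The effect of this on the ratios over E8D was not tested. Myc was thus lower at 1L1D in both types.

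For the molt over the first larval day, all 8 members were called higher in FPC-like cells, 729 cells at 1LM against 71 at 1L1D, where 56.9% of 8624 genes were called higher and 1.83% lower, and the median log2 ratio was 1.54. Myc had 431 CPM at 1LM and 40.6 CPM at 1L1D, a log2 ratio of 3.41, and ex had 79.5 and 12.8 CPM, a log2 ratio of 2.63. The ratios of Akt1 (1.44), Diap1 (1.13), sd (1.06) and CycG (1.03) lay below that median. The 71 cells at 1L1D were much deeper, with a median of 14243 UMIs against 1743 at 1LM, and fibroin genes were among their leading genes. Their leading genes held 1 marker of the FPC type and 1 marker of another type. The study places the FPC type at the molt only. Whether the FPC-like cells of the 2 stages are the same type was not tested. In SPS-like cells, wts, Myc, Akt1, CycG and E2F1 were called higher at 1LM, with log2 ratios of 1.64, 1.62, 1.19, 1.08 and 1.02. In contrast, sd was lower, with 16.7 CPM at 1LM and 48.3 CPM at 1L1D and a log2 ratio of -1.54 (-2.12 to -0.99), where 32.7% of 8108 genes were called higher, 5.48% lower and the median was 0.73. Without 1 of the 3 SPS-like groups at 1L1D (115 cells, with 104 CPM of sd), the log2 ratio of sd was -0.95 (-1.57 to -0.34), no longer past 2-fold. At 1LM against E8D, ex was the member called in SPS-like cells, higher on 38 and 2 UMIs, where 20.3% of genes were called higher and 8.86% lower.

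Other genes of the same pathways were followed through lists of genes, matched to rows by name or by the gene annotation in tables of the study. Those tables list markers found in these libraries, so the matched genes are not an independent choice. For genes that Myc is known to act on in flies and mammals, all 6 matched nucleolar genes of 13 listed were lower at 1L1D than at E8D, where 19.8% of all genes were, and all 6 were higher at 1LM than at 1L1D, where 57.7% of all genes were, with median log2 ratios of -2.07 and 1.43 beside -0.19 and 1.27 for all genes. Fibrillarin (Fib), which methylates ribosomal RNA, had 371 CPM at E8D, 85.0 CPM at 1L1D and 388 CPM at 1LM. The nucleolar chaperone Npm had 1317, 263 and 876 CPM. For 1LM over E8D, 1 of the 6 was lower, nop10, with 239 CPM at 1LM and 495 CPM at E8D, where 5.78% of all genes were lower.

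For DNA replication, 11 of 28 listed genes were matched, of which 6 were lower at 1L1D than at E8D and none higher, beside 19.8% and 13.4% of all genes, with a median log2 ratio of -1.14 beside -0.19. PCNA, the sliding clamp of DNA polymerase, had 63.7 CPM at E8D, 20.5 CPM at 1L1D and 24.2 CPM at 1LM, and CycE, the cyclin of S phase entry, had 5.96, 1.35 and 8.08 CPM. For 1LM over 1L1D, 3 of 11 were higher (CycE, geminin and RnrS) and none lower, where 57.7% of all genes were higher, with a median of 0.50, below the 1.27 of all genes. For 1LM over E8D, PCNA and Orc5 were lower and none was higher, beside 5.78% and 44.9% of all genes, with a median of -0.67 beside 0.94. Of 8 matched mitosis genes of 15, Cdk1 (0.436, 0.377 and 1.14 CPM), Aurora B, CycB3 and Survivin did not exceed 1.14 CPM in any library. Topoisomerase 2 (Top2) had 28.9, 22.5 and 107 CPM and CycA 4.36, 4.53 and 14.6 CPM, both higher at 1LM than at the other stages. In all, 6 of 7 tested mitosis genes were higher at 1LM than at 1L1D, where 57.7% of all genes were, with a median log2 ratio of 1.61 beside 1.27.

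Of the Hippo pathway, 6 of 16 listed genes were matched. The apical polarity protein crb (crumbs) had 14.7 CPM at E8D, 15.1 CPM at 1L1D and 232 CPM at 1LM, the scaffold kibra had 17.9, 29.8 and 126 CPM, and the kinase Hipk had 53.5, 88.8 and 577 CPM. These 3 genes of 6 were higher at 1LM than at 1L1D, beside 57.7% of all genes. With sav, 4 of 6 were higher at 1LM than at E8D, beside 44.9% of all genes. For sav this rested on 34 UMIs at 1LM (2.59 CPM) and 2 UMIs at E8D (0.291 CPM), below the floor of 3 UMIs. The median log2 ratio of the list was 1.40 for 1LM over 1L1D and 2.98 for 1LM over E8D, beside 1.27 and 0.94 for all genes. At 1L1D over E8D, 1 gene of 6 was higher (sav, on 29 and 2 UMIs) and 1 lower, beside 13.4% and 19.8% of all genes. The lower gene was 14-3-3epsilon, which in flies binds phosphorylated Yorkie, with 316 CPM at 1L1D and 677 CPM at E8D.

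Of the insulin and TOR pathway, 14 of 18 listed genes were matched, of which 4 were higher and 2 lower at 1L1D than at E8D, 10 higher and 2 lower at 1LM than at 1L1D, and 9 higher and 2 lower at 1LM than at E8D. Of all genes, 13.4%, 57.7% and 44.9% were higher in these comparisons and 19.8%, 4.98% and 5.78% lower. The insulin receptor InR had 22.7 CPM at E8D, 76.5 CPM at 1L1D and 97.6 CPM at 1LM, and the catalytic subunit Pi3K92E had 11.3, 11.2 and 134 CPM. Thor, the translation repressor 4E-BP that TOR inactivates in flies, went the other way at the molt, with 230, 355 and 114 CPM, lower at 1LM than at both other stages. The median log2 ratio of the list was 0.37 for 1L1D over E8D, 1.52 for 1LM over 1L1D and 1.601 for 1LM over E8D, beside -0.19, 1.27 and 0.94 for all genes.

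Of 9 apoptosis genes, 6 were matched, and 4 of these were tested for 1LM over 1L1D, all of them higher, where 57.7% of all genes were. Caspase1, an executioner caspase, had 1.89 CPM at E8D, 3.99 CPM at 1L1D and 16.1 CPM at 1LM, and Dark, the fly apoptosome factor, had 3.49, 4.58 and 14.9 CPM. The others were Alg-2 and Ibm1, the last on 9 UMIs at 1LM and none at 1L1D. Diap1 did not pass 2-fold in this comparison. The median log2 ratio of the list was 1.97, beside 1.27 for all genes.

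**Figure D5:**
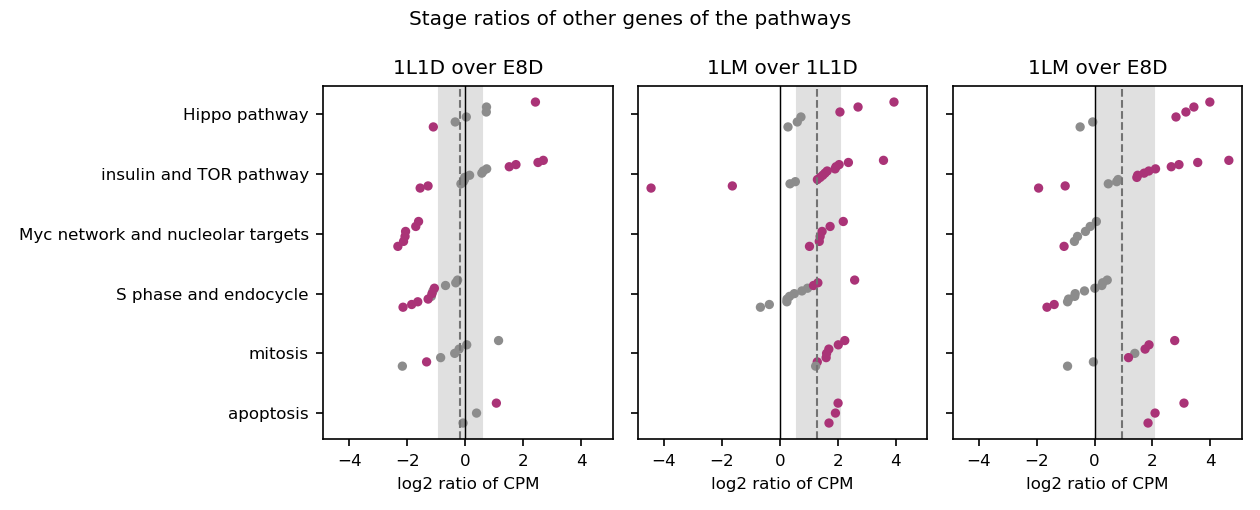
Log2 ratio of CPM (x axis) of each matched gene of 6 pathway lists (y axis, members left out) for the 3 stage pairs; coloured points were called at least 2-fold, grey points were not, the grey band holds the middle 50% of all genes, the dashed line is their median, and genes at 0 in a library are not drawn. All 6 nucleolar genes lie left of the band for 1L1D over E8D, and crb, Hipk and kibra of the Hippo list lie at 2.81 or above for 1LM over E8D.

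Markers of other tissues were looked for in the same sums. The 4 matched muscle markers summed to 42.6 CPM at E8D, 43.3 CPM at 1L1D and 64.5 CPM at 1LM, most of it tropomyosin, with muscle myosin heavy chain at 0.145, 0 and 0.457 CPM. The 2 hemocyte markers summed to 1.89, 4.58 and 12.04 CPM, with PPO1 at 0 at E8D, and the matched fat body marker had 0.291, 0.0539 and 3.66 CPM. The 2 neural markers summed to 175, 93.5 and 393 CPM, mostly from synaptobrevin (nSyb), with 152, 75.1 and 365 CPM, which moved with the stages like CycG and E2F1. The part of such cells in the members' levels was not tested.

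Over the 30 cell groups of the 3 libraries, the genes most like each member were sought by Pearson's r of log2(CPM + 10) among 7811 genes with at least 100 UMIs. The values are descriptions, since groups of 1 library share that library and its depth. Closest to Myc were Achi (r = 0.92), annotated as achintya, and E75 (r = 0.88), an ecdysone-induced nuclear receptor. LOC101745809 was among the closest to both CycG (r = 0.90) and wts (r = 0.92), and closest to Diap1 were Orai1 (r = 0.84) and LOC100862751 (r = 0.82), annotated as the kinase glycogen synthase kinase-3 beta. Among the members themselves, CycG and Akt1 (r = 0.85), CycG and E2F1 (r = 0.84) and E2F1 and wts (r = 0.82) were most alike, and Myc and sd the least (r = 0.05). With the mean of each library taken out, r was 0.64 for CycG and Akt1, 0.58 for CycG and E2F1, 0.46 for E2F1 and wts and 0.17 for Myc and sd. The order of the pairs then changed, with Akt1 and Diap1 (r = 0.55) above E2F1 and wts, and Myc and ex (r = -0.015) the least alike.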

How the data were processed

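Single-cell libraries of dissociated silk glands were made with Chromium 3′ kits at 3 stages, 1 library per stage, and the 3′ counts were not divided by gene length. Per the labels and the methods, the authors aligned reads with STAR in Cell Ranger 3.1.0 to the assembly ASM15162v1 and deposited UMI counts per gene and barcode, without normalization. The methods also mention downsampled reads, which was not repeated. No genome sequence was used here.

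Cells were kept if their UMIs per gene detected did not differ from the mean of the library by more than 2 SD and if 13 mitochondrial genes gave at most 30% of UMIs, as the study's methods state. No doublet caller was run, so doublets were treated by this ratio only. In all, 16344 cells were kept, more than the study reports. Counts were summed over cells as CPM, with exact Poisson intervals, and ratios have exact conditional binomial intervals, at 95%. A count of 0 was put at 3 counts, and genes with more than 3 UMIs in either sum were tested. There is no test between stages, since 1 library per stage gives no spread between samples. Total depth and the intervals give the precision. The calls were also run on simulated Poisson counts with known folds. These follow the model of the intervals and hold no spread between cells or libraries, so they check the calculation only.

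Groups of cells came from 2000 variable genes, 30 principal components, 20 neighbours and Leiden clustering at resolution 0.8 with seed 1. A group was named for the type with the highest median log2 ratio of markers, if that was at least 1, with 3 or more of its markers found, enough depth against the median of its library and no more leading genes of another region or leading markers of another type than of its own. These last conditions, with silk protein genes counted for their region, were set after the leading genes had been seen. Types were compared between stages only where no group had more leading markers of another type.

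Named genes were the 8 members, up to 4 list genes with the largest ratios per list and direction among those past 2-fold with at least 30 UMIs, and the 2 genes most like each member. Not every gene that this rule gives is reported here. Cdk1, CycB3, Aurora B, Survivin, Ibm1, sav at 1L1D and the tissue markers are named beside these, chosen after their values were seen. The members and lists were chosen with earlier results of these data known. Of 114 listed genes and markers, 60 were matched. Alternatives were other filters, scalings (TMM factors of edgeR 4.0.16, size factors of DESeq2 1.42.0), depths and clusterings. Python 3.11.15, numpy 2.4.6, scipy 1.17.1, leidenalg 0.10.2 and R 4.3.3 were used.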

Additional observations from a re-analysis of the deposited data

Results flagged for a closer look

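In CPM, Akt1 and CycG went with the depth of a cell in opposite directions at different stages, with intervals that left out 0. For Akt1 the deepest over the shallowest depth class gave a log2 ratio of 0.36 in the E8D library, -0.28 in the 1L1D library and -0.48 in the 1LM library. For CycG it was 0.22 at E8D and -0.21 at 1LM. The medians of all genes were 0.31 at E8D, 0.30 at 1L1D and 0.13 at 1LM. CycG thus lay below the median at E8D and at 1LM. Akt1 lay near it at E8D and below it at 1L1D and 1LM. Neither the difference between stages nor the part of cell group in these ratios was tested. The positive values at E8D depended on the cells: over all deposited barcodes the log2 ratio at E8D was -0.06 for Akt1 and -0.32 for CycG.

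For 1LM over 1L1D, sd had a log2 ratio of 1.06 in FPC-like cells of the posterior gland and of -1.54 in SPS-like cells of the middle gland. Without 1 of the 3 SPS-like groups at 1L1D the second value was -0.95, no longer past 2-fold. The median log2 ratio of all genes was 1.54 in FPC-like cells and 0.73 in SPS-like cells. In both types sd lay below this median, so relative to it the signs were not opposite. The 71 FPC-like cells at 1L1D were much deeper than the 729 at 1LM, with a median of 14243 against 1743 UMIs. The study places the FPC type at the molt only. Neither the difference between the types nor its cause was tested.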

How the results depend on the processing

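For 1LM over 1L1D, 6 members were past 2-fold with CPM, but 1 with TMM factors, 1 with DESeq2 size factors and 1 relative to the median of all genes, and each time this was Myc. The log2 ratio of sd turned to -0.0090 with DESeq2 size factors and to -0.12 relative to the median. For 1LM over E8D, 2 members were past 2-fold, but 1 with TMM factors and 4 with the mean over cells of counts per 10000. The 2 with DESeq2 size factors, and likewise relative to the median, were sd, higher, and Diap1, lower (log2 ratio -1.004 with DESeq2 size factors), while ex was no longer past 2-fold (0.81). At matched depth, 10 calls became 3 relative to the median. For 1L1D over E8D, 2 members higher and 1 lower became 1 higher and 3 lower with cells thinned to 1000 UMIs, where E2F1 (-1.20) and wts (-1.12) were past 2-fold lower and sd (0.90) no longer past 2-fold. In both directions summed, all other alternatives kept each total within 1.5 times of its value in kept cells, 3 members for 1L1D over E8D, 0 for each library by depth, 17 combinations by cell group (16 to 20) and 8 members with the highest thinned share at 1LM (6 to 8). Thinned shares were not taken over all genes, so the count of members highest at 1LM has no like background. Myc ranged from -2.56 to -1.85 for 1L1D over E8D. The values relative to the median, those at matched depth over all deposited barcodes and that of sd without 1 SPS-like group were chosen after seeing the data. No paired analysis was possible because each stage has 1 library.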
